A study of Mus musculus with 14 samples.

Results

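Expression of 10 granule and receptor genes of basophils, mast cells and eosinophils was followed through all 14 libraries: Mcpt8, Prss34, Cpa3, Fcer1a, Ms4a2, Epx, Prg2, Prg3, Ear1 and Ear2. They are 10 of the 55335 genes in the deposited table, were matched on gene name, and were picked because Mcpt8, Prss34, Epx and the Ear genes were much lower after treatment. Their values against untreated libraries are therefore a description of how they were chosen. Counts of calls against untreated stand beside the share of all tested genes, and nothing is read from them. Comparisons between treatments were tested, but all of them use treated libraries that also entered the comparisons behind the choice of the genes. All 10 passed the filter on low counts, which every gene with enough reads in 1 group of libraries passes.

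The libraries were made from bone marrow of Cdh5 CRE Rosa26 TdTomato mice, in which Cre recombinase driven by the endothelial Cdh5 promoter switches on a red reporter, and the cells were sorted as Lineage-, CD45- and TdTomato+. Every group carried this genotype, and the ages of the mice are not given in the sources used here. The 4 groups were untreated controls (4 libraries), total body irradiation with 500 cGy from a cesium source (TBI, 5 libraries), 20 µCi of radioimmunotherapy on a non-targeting IgG (IgG RIT, 3 libraries) and 20 µCi of radioimmunotherapy on an antibody to CD45 (CD45 RIT, 2 libraries). Treated cells were collected 8 days after treatment. The reporter marks a cell by its history, so a TdTomato+ cell or one of its ancestors expressed Cre.

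Basophils, mast cells and eosinophils arise from bone marrow progenitors that express GATA factors, and each fills its granules with characteristic proteins. Basophils and mast cells carry the high-affinity receptor for IgE, whose crosslinking releases the granules, and mast cells complete their maturation in tissues. Eosinophil granules hold a peroxidase, major basic proteins and ribonucleases. Mcpt8 and Prss34 are serine proteases used as markers of mouse basophils. Cpa3 is a carboxypeptidase of basophils, mast cells and their progenitors, and Fcer1a and Ms4a2 encode the alpha and beta chains of the IgE receptor. Epx is eosinophil peroxidase, Prg2 and Prg3 encode major basic proteins, and Ear1 and Ear2 encode eosinophil-associated ribonucleases. The first 5 are called the basophil-associated genes below and the last 5 the eosinophil-associated genes, although Cpa3, Fcer1a and Ms4a2 are shared with mast cells.

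Ear1 and Ear2 are related genes that share sequence, which bears on every value given for them. Over the 250 bases before the RefSeq start of each gene (GRCm38.p6), 248 bases aligned without a gap and 246 of them were identical. For Ear1 the RefSeq start differs from the GENCODE start, so its stretch lies inside the gene as counted (chr14:43818765-43875517). The pair is printed with the 2 differing bases in capitals.
Ear1, chr14:43819640-43819889, reverse strand: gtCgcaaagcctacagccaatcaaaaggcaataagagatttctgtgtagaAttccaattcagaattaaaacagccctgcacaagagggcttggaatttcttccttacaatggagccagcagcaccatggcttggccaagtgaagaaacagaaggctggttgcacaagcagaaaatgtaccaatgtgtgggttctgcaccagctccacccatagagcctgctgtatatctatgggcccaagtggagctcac
Ear2, chr14:44102404-44102653, forward strand: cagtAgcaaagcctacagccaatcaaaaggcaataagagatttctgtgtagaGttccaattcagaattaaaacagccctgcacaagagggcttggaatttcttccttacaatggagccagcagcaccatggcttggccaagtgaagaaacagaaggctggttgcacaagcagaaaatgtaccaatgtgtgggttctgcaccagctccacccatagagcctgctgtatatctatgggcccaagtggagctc
The likeness extends into part of the transcripts. Of the 50-base stretches in the GENCODE transcripts of Ear1, 57.4% also occurred in another gene, mostly in the pseudogene Ear-ps9 (41.4%) and in Ear2 (23.8%). Of those of Ear2, 41.5% occurred elsewhere, mostly in Ear10 and Ear1 (23.6% in the latter). The counts of Ear1 and Ear2 depend on how the authors assigned shared reads and are uncertain as values of single genes. The stretches of Mcpt8, Prss34, Epx, Prg2, Prg3, Cpa3 and Fcer1a occurred in no other gene, and 2.10% of those of Ms4a2 did.

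The promoters were also searched for the letters AGATAA and TGATAA on both strands, the core letters that GATA factors bind, over the same 250 bases. RefSeq promoters were found for 9 of the 10 genes, all but Prg2. Prss34, Cpa3, Fcer1a and Prg3 each held 1 match and Ms4a2 held 3, while Mcpt8, Epx, Ear1 and Ear2 held 0. Of 32851 mouse promoters of this length, 16.6% held at least 1 match. A match is a description of the letters and not evidence of binding. The promoters of Prss34, Cpa3, Ms4a2 and Prg3 are shown, with matches in capitals (TTATCT and TTATCA are the motifs read on the other strand), as examples of matches from both gene groups.
Prss34, chr17:25298144-25298393, forward strand: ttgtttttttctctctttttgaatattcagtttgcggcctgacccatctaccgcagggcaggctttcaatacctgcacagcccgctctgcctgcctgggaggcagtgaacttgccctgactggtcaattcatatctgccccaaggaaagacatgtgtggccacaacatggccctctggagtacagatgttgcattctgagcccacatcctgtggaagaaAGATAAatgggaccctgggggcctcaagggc
Cpa3, chr3:20242182-20242431, reverse strand: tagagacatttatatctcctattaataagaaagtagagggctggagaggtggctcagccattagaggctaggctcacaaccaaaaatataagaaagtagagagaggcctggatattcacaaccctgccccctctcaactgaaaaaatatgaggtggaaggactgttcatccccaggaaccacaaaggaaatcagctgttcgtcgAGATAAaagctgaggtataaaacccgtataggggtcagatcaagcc
Ms4a2, chr19:11623720-11623969, reverse strand: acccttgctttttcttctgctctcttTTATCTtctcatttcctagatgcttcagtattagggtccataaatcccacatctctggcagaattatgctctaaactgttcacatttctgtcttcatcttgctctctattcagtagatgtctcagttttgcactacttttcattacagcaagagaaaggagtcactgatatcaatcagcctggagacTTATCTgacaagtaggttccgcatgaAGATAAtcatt
Prg3, chr2:84987965-84988214, forward strand: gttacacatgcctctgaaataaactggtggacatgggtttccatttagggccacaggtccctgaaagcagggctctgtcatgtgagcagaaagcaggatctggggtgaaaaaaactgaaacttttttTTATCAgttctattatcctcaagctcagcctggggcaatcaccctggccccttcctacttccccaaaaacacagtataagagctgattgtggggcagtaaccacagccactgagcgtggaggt

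In untreated libraries the genes were abundant. Together they took 0.779% to 1.09% of all counts, 195719 to 340056 counts per library. Per length (RPKM, the library-scaled count divided by the length of the gene's transcripts), Prss34 was the highest at 3431 ± 598 (SD, n = 4), above Prg2 at 1523 ± 539 in all 4 libraries and with no overlap. Prg2 and Mcpt8, at 1360 ± 288 RPKM, could not be ordered, since each was higher in 2 of 4 libraries. Cpa3 followed at 176 ± 41.5 RPKM, apart from its neighbours on both sides. Fcer1a (97.1 ± 18.3), Epx (93.2 ± 31.2), Prg3 (77.7 ± 31.2), Ear1 (41.1 ± 16.7), Ear2 (34.4 ± 15.1) and Ms4a2 (23.7 ± 10.4 RPKM) each overlapped the next in the order.

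The sort label was checked against marker genes. Cdh5, the endothelial cadherin whose promoter drives the Cre, had 0 to 6 counts in untreated libraries, 0 to 5 after TBI and 0 in all 5 radioimmunotherapy libraries. Pecam1, expressed by endothelial and many blood cells, was at 44.3 ± 16.5 CPM (n = 4, read counts scaled to library size) in untreated libraries, and Ptprc, the gene of CD45, at 72.7 ± 17.8 CPM. Endothelial marker genes together summed to 143 to 182 CPM in untreated libraries. Libraries held 16412779 to 31077588 counts in all. Erythroid marker genes summed to 6618 to 12341 CPM in untreated libraries, 24041 to 37755 CPM in 4 TBI libraries, 207428 CPM in TBI 6, 156182 to 178142 CPM after IgG RIT, and 272315 and 61120 CPM after CD45 RIT. Stromal marker genes summed to 49905 and 73089 CPM after CD45 RIT, against 2623 to 6694 CPM in untreated libraries. TBI 6 also shares a high library number with the radioimmunotherapy libraries: untreated libraries and the other TBI libraries are numbered 1 to 9 in the labels, and TBI 6 and all radioimmunotherapy libraries 10 to 16. What that number stands for is not given in the sources used here. In bulk samples like these, fewer cells of a type and less RNA per cell cannot be told apart. Nothing in the labels says that replicates came from separate mice, so p-values measure the spread between libraries, which may be technical.

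Mcpt8 and Prss34 were high in every untreated library and lower in every treated one. Mcpt8 (chr14:56082166-56085273, GRCm38) stood at 1584, 1594, 997 and 1254 CPM in untreated 1 to 4. It stood at 92.8, 179, 69.5, 83.1 and 25.6 CPM in TBI 1, 3, 4, 5 and 6. After IgG RIT it was at 0.868, 6.67 and 70.9 CPM in libraries 1 to 3. After CD45 RIT each library held 1 count of Mcpt8. No group overlapped the untreated range and the IgG RIT libraries differed widely among themselves, from 15 to 1349 counts.

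Prss34 (chr17:25298394-25300165) was at 5146, 4052, 3377 and 4170 CPM in untreated libraries. After TBI it was at 222, 595, 203, 293 and 78.7 CPM. The 3 IgG RIT libraries held 0, 309 and 6588 counts, or 0, 15.4 and 346 CPM, so that IgG RIT 3 lay inside the TBI range and IgG RIT 1 showed no read. The CD45 RIT libraries held 1 and 3 counts. Prss34 had 2.54 to 3.39 times the counts of Mcpt8 in untreated libraries, 2.39 to 3.52 times in TBI libraries, 2.31 times in IgG RIT 2 and 4.88 times in IgG RIT 3.

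Cpa3 (chr3:20215620-20242181) stood at 357, 230, 218 and 261 CPM in untreated libraries and at 19.8, 43.7, 28.9, 24.3 and 7.75 CPM after TBI. After IgG RIT it was at 11.2, 2.79 and 20.3 CPM. IgG RIT 1 thus held 194 counts of Cpa3, the highest count of the 10 genes in that library, where Prss34, Fcer1a, Ms4a2 and Ear2 had 0. CD45 RIT libraries held 0 and 1 count.

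The IgE receptor chains were lower by similar amounts. Fcer1a (chr1:173221284-173227214) was at 94.8, 85.4, 83.9 and 123 CPM in untreated libraries, 8.35, 26.8, 11.1, 15.9 and 2.08 CPM after TBI, and 0, 0.996 and 8.35 CPM after IgG RIT. Ms4a2 (chr19:11615523-11623719) was at 98.5, 36.5, 48.1 and 83.5 CPM, then 8.03, 13.1, 8.49, 14.1 and 2.51 CPM, then 0, 2.04 and 7.09 CPM. Neither gene overlapped the untreated range in any treated group. In the CD45 RIT libraries Fcer1a had 0 counts in both and Ms4a2 had 1 and 0.

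The eosinophil-associated genes were lower by smaller factors after TBI, a difference between the gene groups that was not tested. Epx (chr11:87864000-87875536) stood at 257, 256, 358 and 149 CPM in untreated libraries and at 50.3, 182, 170, 158 and 34.4 CPM after TBI, where 3 libraries lay above the lowest untreated value. Prg2 (chr2:84980461-84983632) was at 1257, 1471, 1717 and 661 CPM and after TBI at 154, 563, 399, 438 and 182 CPM, without overlap. Prg3 (chr2:84988215-84993886), whose gene lies beside Prg2, was at 76.5, 85.0, 101 and 32.2 CPM and after TBI at 8.95, 34.0, 19.1, 26.8 and 7.46 CPM, with overlap. Untreated 4 was the lowest untreated library for all 3 genes.

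Ear1 (chr14:43818765-43875517) was at 20.5, 29.6, 47.2 and 22.5 CPM in untreated libraries and at 6.44, 25.1, 20.6, 26.4 and 6.53 CPM after TBI. Ear2 (chr14:44102654-44103534) was at 11.9, 25.6, 38.3 and 23.0 CPM and then at 6.19, 20.2, 20.6, 28.7 and 4.74 CPM. In TBI 3, 4 and 5 both genes lay inside the untreated range. After IgG RIT the picture changed: Ear1 had 2, 0 and 0 counts and Ear2 had 0 in all 3 libraries, and after CD45 RIT Ear1 had 1 and 0 counts and Ear2 had 0.

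**Figure D1:**
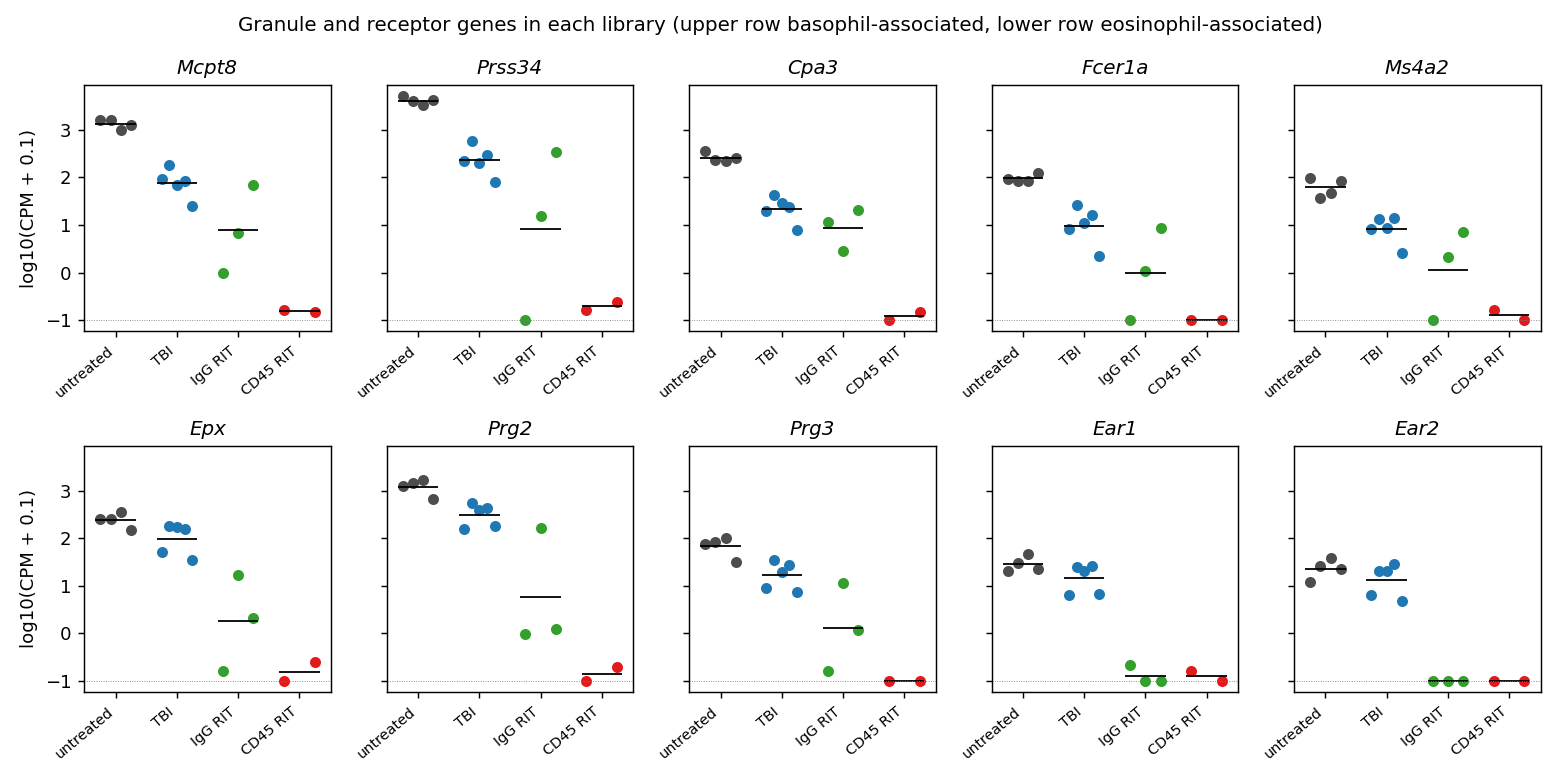
CPM of each gene in each of the 14 libraries, plotted as log10(CPM + 0.1), with a black line at each group's mean of the plotted values and a dotted line at 0 counts. For Mcpt8, Prss34, Cpa3, Fcer1a and Ms4a2 every treated point lies below every untreated point, while for Epx, Prg3, Ear1 and Ear2 some TBI points lie among the untreated ones.

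In the fit across all genes, the basophil-associated genes had log2 fold changes after TBI from -3.91 (Mcpt8, SE 0.90, and Prss34, SE 1.26) through -3.42 (Cpa3, SE 0.55) and -2.91 (Fcer1a, SE 1.00) to -2.85 (Ms4a2, SE 0.91). The eosinophil-associated genes lay closer to 0, from -1.94 (Prg3, SE 0.93) and -1.88 (Prg2, SE 1.09) through -1.10 (Epx, SE 0.89) to -0.82 (Ear1, SE 0.62) and -0.62 (Ear2, SE 0.59). These values follow from the choice of the genes. Counted under the edgeR quasi-likelihood test with Benjamini-Hochberg adjustment, 2 of the 10 (Mcpt8 and Cpa3) were called lower after TBI, where 3.38% of the 21509 tested genes were. The count was 5 with DESeq2, which added Prss34, Fcer1a and Ms4a2. It was 5 without IgG RIT 1, 4 without either CD45 RIT library, and 1 (Cpa3) without any 1 untreated library or without TBI 1, 4, 5 or 6. Groups did not overlap for 6 of 10 (12.8% of all tested genes), and the median log2 fold change was -2.39 against -0.16 over all tested genes. None of the 10 was called higher after TBI, where 0.921% of tested genes were.

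After IgG RIT the fitted log2 fold changes against untreated were -5.70 for Mcpt8 (SE 1.22), -5.12 for Prss34 (SE 1.67), -4.54 for Cpa3 (SE 0.72), -4.95 for Fcer1a (SE 1.37), -4.45 for Ms4a2 (SE 1.22), -5.32 for Epx (SE 1.29), -4.53 for Prg2 (SE 1.49) and -4.18 for Prg3 (SE 1.25). Ear2 was at least 464-fold lower, taking 3 counts over the group as the floor, and Ear1 was 845-fold lower, with an interval of 234 to 6978 (exact Poisson, 95%, counting error only). Called lower were 8 of 10, all but Prss34 and Prg2, where 10.7% of tested genes were, and all 10 had no overlap (27.4% of tested genes). The 8 calls became 5 without untreated 1 or untreated 4. The whole comparison coincides with the split in library numbers. With a term for a library number of 10 or more none of the 10 was called, while 4 had an unadjusted p under 0.05. Only the TBI group has libraries on both sides of the split, so TBI 6 against the other TBI libraries sets this term. Wherever the term is used, it carries the shift of that library and is not a general adjustment for library number. None was called higher, against 5.75% of tested genes.

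After CD45 RIT the 10 genes together had 4 and 10 counts among totals of 23320156 and 26823379. Prss34 was 38977-fold lower than in untreated libraries (15223 to 143052), Mcpt8 25270-fold (6995 to 208659) and Prg2 23765-fold (6579 to 196237), with intervals that cover counting error alone. Fcer1a, with no read, was at least 1203-fold lower and Prg3 at least 916-fold. All 10 were called lower, where 18.6% of tested genes were, and all 10 had no overlap (29.8%), counts that follow from the choice of the genes. With genes at 0 set to their bound, the median fall was 11.45 on the log2 scale, and the median over all tested genes was -0.37. Of all tested genes, 14.5% were called higher, and none of the 10 was.

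**Figure D2:**
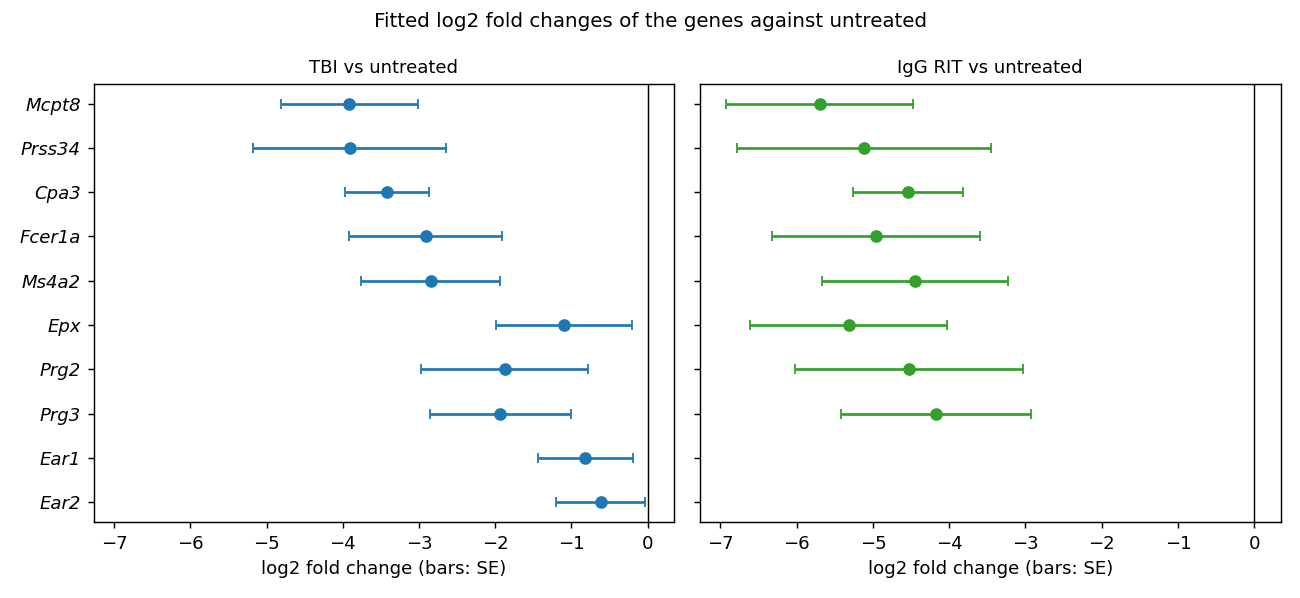
Fitted log2 fold change of each gene against untreated (points, bars show the SE), for TBI on the left and IgG RIT on the right, where Ear1 and Ear2 are left out because 0 to 2 counts give no estimate. On the left the upper 5 genes lie at -3.91 to -2.85 and the lower 5 at -1.94 to -0.62, and on the right the 8 genes lie between -5.70 and -4.18.

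The sums of the 5 basophil-associated and the 5 eosinophil-associated genes were set against each other in each library. In untreated libraries Prss34 and Mcpt8 made up most of the first sum (means 4186 and 1357 CPM). Prg2 made up most of the second (1276 CPM). After CD45 RIT the sums held only 3 and 5 counts against 1 and 5. In untreated libraries the basophil-associated sum was 5973 ± 1045 CPM and the eosinophil-associated sum 1660 ± 578 CPM (SD, n = 4), a ratio of 2.09 to 6.64. After TBI the sums were 415 ± 273 and 519 ± 272 CPM (n = 5) and the ratio was 0.496 to 1.55, below every untreated library. The order per length changed with it: Prg2, at 414 ± 208 RPKM, stood above Prss34, at 228 ± 158 RPKM, in all 5 TBI libraries, though the ranges overlapped. Ear1 and Ear2 stood above Cpa3 and Fcer1a in the mean, where the untreated order was the opposite.

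The 3 IgG RIT libraries did not share a ratio. IgG RIT 3 had 453 CPM of the basophil-associated genes and 4.26 CPM of the eosinophil-associated genes. IgG RIT 2 had 27.9 and 192 CPM, the opposite order, and IgG RIT 1 had 12.1 and 1.10 CPM. In IgG RIT 1 the basophil-associated sum rested on 209 counts, 194 of them of Cpa3, and the eosinophil-associated sum on 19. The ratios were 11.0, 0.146 and 106 in libraries 1 to 3, so none lay inside the untreated range or the TBI range. Their totals were 21657745, 22924390 and 22795727 counts, their erythroid sums 156182 to 178142 CPM and their sums over pan-haematopoietic markers 588 to 774 CPM. They differed in other genes too: S100a8, a neutrophil calcium-binding protein, was at 6.08, 81.4 and 14.4 CPM, and the stromal sums were 1445, 426 and 1211 CPM. The part of these in the values of the 10 genes was not tested. Means over this group join libraries that differ widely in the 10 genes, and its SDs exceed or approach its means (Prg2 55.2 ± 93.8 CPM, Prss34 121 ± 196 CPM, n = 3).

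**Figure D3:**
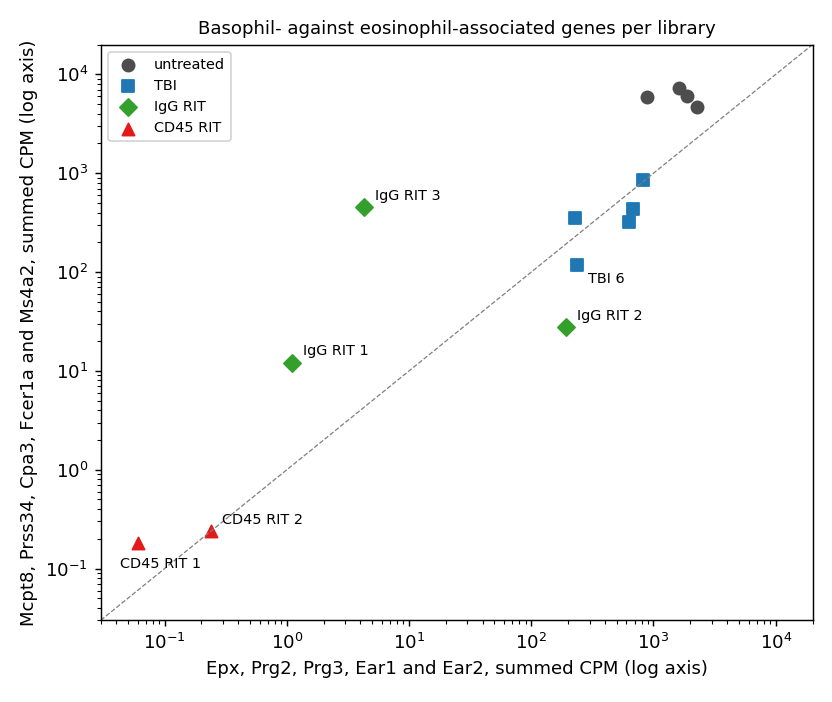
Summed CPM of the 5 eosinophil-associated genes (horizontal, log axis) and the 5 basophil-associated genes (vertical, log axis), 1 point per library, with the dashed line marking equal sums. Untreated libraries lie above the line, TBI libraries lie near it, and IgG RIT 2 and IgG RIT 3 lie on opposite sides at 192 against 27.9 CPM and 4.26 against 453 CPM.

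Between treatments, CD45 RIT libraries had fewer reads of all 10 genes than TBI libraries, and the difference was tested. All 10 were called lower (edgeR quasi-likelihood, adjusted p from 0.000115 for Cpa3 to 0.00763 for Prss34), where 19.0% of tested genes were, and in all 10 every CD45 RIT library lay below every TBI library (27.7%). Prg2 was 6468-fold lower (1790 to 53405), Prss34 2591-fold (1012 to 9510) and Fcer1a at least 159-fold. None was called higher, where 19.6% of tested genes were. All 10 stayed called when any 1 library was left out, and 8 with a term for a library number of 10 or more, where Fcer1a and Ms4a2 lost their calls. These treated libraries also entered the comparisons with untreated that chose the genes.

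CD45 RIT was also below IgG RIT for 8 of 10 genes (17.5% of tested genes called lower), with adjusted p from 0.000339 for Cpa3 to 0.0230 for Fcer1a, and none was called higher (20.2%). Ear1 and Ear2 were at or under 2 counts in all 5 libraries and allow no comparison. In 4 of 10 genes no library overlapped (29.6% of tested genes), since IgG RIT 1 held 0 or 1 count of several genes. The count of 8 fell to 2 (Mcpt8 and Cpa3) without CD45 RIT 2. Leaving that library out puts a single CD45 RIT library against 3, with the spread taken from the other groups.

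IgG RIT and TBI libraries differed in Ear1 and Ear2. Ear1 and Ear2 were called lower after IgG RIT (adjusted p = 0.0176 for both, edgeR quasi-likelihood test), where 0.172% of tested genes were called lower. None of the 10 was called higher (0.0697%), and 3 of the 10 (8.44%) had no overlap. Ear2 was at least 302-fold lower and Ear1 480-fold lower (133 to 3960), and all 3 IgG RIT libraries lay below all 5 TBI libraries. The counts of both depend on how reads shared among related genes were assigned, so the 2 calls may not be independent. Ear6, which shares few stretches, had 9.86 CPM in IgG RIT 2, inside its TBI range of 5.84 to 28.9 CPM, and 0 counts in IgG RIT 1 and 3. TBI 6 held 91 counts of Ear1 and 66 of Ear2, and the IgG RIT libraries 0 to 2. With a term for a library number of 10 or more the adjusted p was 0.147 for both. Ear2 lost its call without TBI 3, TBI 4, IgG RIT 1 or IgG RIT 2, and Ear1 without IgG RIT 2, with adjusted p of at most 0.0534. For the other 8 genes the test did not separate IgG RIT from TBI: log2 differences ran from -4.22 (Epx, SE 1.20, adjusted p = 0.109) to -1.12 (Cpa3, SE 0.60, adjusted p = 0.335). Epx was called without TBI 6 or without either CD45 RIT library, and Prg2 without IgG RIT 2.

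Other genes of the same cells were counted from lists of textbook markers, none of which was chosen by the rule above. The lists were drawn up with earlier results of these data known, so their counts are not independent of these data. The calls in these lists are to be read beside all tested genes, of which 3.38%, 10.7% and 18.6% were called lower and 0.921%, 5.75% and 14.5% higher after TBI, IgG RIT and CD45 RIT. Of 14 tested further basophil genes, 5 were called lower after TBI, 11 after IgG RIT and 9 after CD45 RIT, with none higher, and their median log2 fold changes were -2.93, -4.29 and -5.40, against -0.16, -0.42 and -0.37 over all tested genes. In these medians the genes at or under 3 counts in each library of a treated group (0, 2 and 8 of the 14) were set to their count ratio, or to the floor of 3 counts over the group where they had 0. Hdc, which makes histamine, went from 154 ± 33.9 CPM in untreated libraries to 15.5 ± 8.75 after TBI (log2 fold change -3.31, SE 0.54, adjusted p = 0.00688) and 10.8 ± 3.98 after IgG RIT (-3.83, SE 0.68, adjusted p = 0.00526). It had 0 counts after CD45 RIT. With a term for a library number of 10 or more, the log2 fold change of Hdc after IgG RIT was -0.75 and not called. Its TBI call was lost with the replicate number as a block. In IgG RIT 1, 2 and 3 Hdc had 209, 128 and 267 counts. Genes of the list were not alike in these libraries. Csf2rb had 2, 52 and 129 counts, in the order of Prss34, and Il4 had 2, 13 and 0, both chosen after their values were seen. Ifitm1, an interferon-inducible membrane protein, was called lower after all 3 treatments. Its IgG RIT and CD45 RIT calls were lost with the library number term, and its TBI call with the block. Alox5, which starts leukotriene synthesis, was not called in any. CD45 RIT 2 held 81.2 CPM of it against 0.122 in CD45 RIT 1. All 15 listed basophil genes together summed to 488 to 744 CPM in untreated libraries. The sums were 29.4 to 152 CPM after TBI and 16.8 to 53.2 CPM after IgG RIT. After CD45 RIT they were 59.5 and 125 CPM, above every IgG RIT library.

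Mature mast cell proteases were sparse. Mcpt4 had 0 counts in every library, Tpsb2 at most 2, Tpsab1 at most 5 and Cma1 at most 13, and 9 of the 16 further mast cell genes did not pass the filter. Mcpt2, a mucosal mast cell protease named after its values were seen, had 0 or 1 count in untreated libraries, 0 to 21 after TBI, 30, 59 and 21 after IgG RIT and 41 and 0 after CD45 RIT. It was called higher after IgG RIT (adjusted p = 0.0247, lost without any 1 untreated library and without IgG RIT 1 or 2) and after CD45 RIT (adjusted p = 0.0218, lost without untreated 2, untreated 3, untreated 4 or CD45 RIT 1), and with a term for a library number of 10 or more in neither. Mcpt1, a related protease also named after its values were seen, had 0 counts in untreated libraries and 6, 0 and 15 after IgG RIT. Kit, the stem cell factor receptor of mast cells and progenitors, was at 135 ± 39.6 CPM in untreated libraries and 47.2 ± 20.1 after TBI and was not called in any comparison with untreated. Slc18a2, a vesicular monoamine transporter, was called lower after TBI and IgG RIT, with log2 fold changes of -1.92 and -2.55 (SE 0.37 and 0.46, adjusted p = 0.0147 and 0.00528). The IgG RIT call was lost with the library number term (log2 fold change -1.30), and the TBI call with the replicate block. Il1rl1, the interleukin 33 receptor, did not share the pattern, at 21.5 ± 3.24 CPM in untreated libraries, 27.4 ± 3.24 after TBI and 34.7 ± 15.0 after IgG RIT, neither of them called. It had 0 and 1 count after CD45 RIT.

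Among 11 tested further eosinophil genes, 1 was called lower after TBI, 6 after IgG RIT and 6 after CD45 RIT, with Ltc4s higher in the last. Ear6, a relative of Ear1 that shares 0.954% of its 50-base stretches with other genes, was at 32.4 ± 14.6 CPM in untreated and 18.0 ± 11.2 CPM in TBI libraries. It had 0 counts in IgG RIT 1 and 3 but 198 counts (9.86 CPM) in IgG RIT 2, the library where Ear1 and Ear2 had none. Ccl6, a chemokine of myeloid cells, was called lower after all 3 treatments, though not after CD45 RIT without untreated 1, untreated 4 or CD45 RIT 1, and also after IgG RIT against TBI (log2 difference -2.96, SE 0.54, adjusted p = 0.0489, lost in 10 of 14 fits that left out 1 library). Alox5ap, the partner of Alox5, was called lower after IgG RIT and CD45 RIT, the former lost without untreated 2 or any 1 IgG RIT library. Both calls, and those of Ccl6 after IgG RIT and CD45 RIT, were lost with the library number term. With the replicate block, both Alox5ap calls and the Ccl6 calls after TBI and CD45 RIT were lost. Receptors of mature eosinophils were sparse: Il5ra had 0 to 160 counts and Ccr3 0 to 45 in untreated libraries. Siglecf, outside the rule for named genes and chosen after its values were seen, was at 16.5 ± 10.8 CPM in untreated libraries and had 0 counts in all 5 radioimmunotherapy libraries.

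Genes that carry the signal of the IgE receptor were counted as well. Of 15, 2 were called lower after TBI, 7 after IgG RIT and 5 after CD45 RIT, with Plcg1 higher in the last, beside 3.38%, 10.7% and 18.6% of all tested genes lower. Btk, a kinase of that pathway, was at 75.6 ± 15.0 CPM in untreated and 92.4 ± 31.4 CPM in TBI libraries, not called, and its log2 fold change after IgG RIT was -1.62 (SE 0.44, adjusted p = 0.0271), a call lost in 5 of 14 fits that left out 1 library. Vav1, an exchange factor, had -2.55 after IgG RIT (SE 0.63, adjusted p = 0.0187, lost without IgG RIT 1 or 2) and was not called after TBI. With the library number term neither Btk nor Vav1 was called after IgG RIT. Inpp5d, an inhibitory phosphatase, was called lower after CD45 RIT alone of the 3 treatments (-3.47, SE 1.21, adjusted p = 0.0435, lost in 11 of 14 fits that left out 1 library), and its difference between CD45 RIT and IgG RIT was not called (-1.88, SE 1.13, adjusted p = 0.205).

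Genes for packing and releasing granules were mixed. Of 17 tested, 4 were called lower after TBI, 6 after IgG RIT and 7 after CD45 RIT, and 0, 1 and 2 higher. Srgn, the proteoglycan core that holds granule proteases, fell after each treatment, with log2 fold changes of -1.25, -2.02 and -3.70 for TBI, IgG RIT and CD45 RIT (SE 0.24, 0.29 and 0.38, adjusted p = 0.0133, 0.00217 and 3.44e-05). Its IgG RIT call was lost with the library number term (log2 fold change -1.04), and its TBI call with the replicate block. Cd63, a granule membrane protein of many cell types, fell after TBI and IgG RIT (log2 fold changes -2.58 and -3.14, SE 0.22 and 0.28, adjusted p = 0.000541 and 0.000972) and rose after CD45 RIT (1.77, SE 0.27, adjusted p = 0.000488), where the stromal sums were highest. The TBI call of Cd63 was lost with the replicate block. Vamp8, a fusion protein of granule release, was called higher after IgG RIT (log2 fold change 0.84, SE 0.25, adjusted p = 0.0422), but not without scaling factors (0.32, adjusted p = 0.242) or in 10 of 14 fits that left out 1 library.

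Transcription factors of these lineages did not move as one. Of 15, 3 were called lower after TBI (Gata2, Cebpa and Cebpe), 5 after IgG RIT and 5 after CD45 RIT, with 3 higher in the last. Gata1, shared by erythroid cells, megakaryocytes, eosinophils and basophils, stood at 231 ± 36.8 CPM in untreated, 444 ± 116 in TBI and 606 ± 4.21 CPM in IgG RIT libraries, where it was not called, and at 67.4 and 0 CPM after CD45 RIT. Its cofactor Zfpm1 went from 106 ± 6.32 to 228 ± 76.8 and 407 ± 33.1 CPM, not called either. The erythroid sums rose through the same groups, and their part in these values was not tested. Gata2, a progenitor, basophil and mast cell factor named after its values were seen, fell after TBI and IgG RIT (log2 fold changes -2.07 and -4.48, SE 0.40 and 0.55, adjusted p = 0.0157 and 0.00184) and had 0 counts after CD45 RIT. The IgG RIT call of Gata2 was lost with the library number term (log2 fold change -2.56), and its TBI call with the replicate block. Irf8, a factor of monocytes and basophil progenitors, was called lower after IgG RIT (-2.84, SE 0.85, adjusted p = 0.0398), a call lost in 10 of 14 fits that left out 1 library.

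Of 16 neutrophil granule genes, 5 were called lower after TBI, 6 after IgG RIT and 9 after CD45 RIT, with Mmp9 higher in the last, a gene named after its values were seen and whose groups overlapped. Mpo, myeloperoxidase, went from 7512 ± 573 CPM in untreated libraries to 432 ± 308 after TBI and 573 ± 102 after IgG RIT, with 1 and 4 counts after CD45 RIT. Elane and Ctsg, proteases of the same granule, were called lower after all 3 treatments as well. With the library number term the IgG RIT calls of Mpo (log2 fold change -0.29), Elane (-0.98) and Ctsg (-1.10) were lost. The TBI call of Elane was lost with the replicate block. IgG RIT libraries held 43.5 to 62.6 CPM of Ctsg, where Prss34 ran from 0 to 346 CPM. Other genes of the list were highest in IgG RIT 2 among the IgG RIT libraries, where S100a8 (81.4 CPM), S100a9 (71.7), Ngp (27.7), Ltf (19.2) and Retnlg (16.5 CPM), chosen after their values were seen, lay above every untreated library. The sum over progenitor markers was 1105 to 1490 CPM in untreated libraries, 411 to 453 CPM in 4 TBI libraries, 79.8 CPM in TBI 6, 96.8 to 156 CPM after IgG RIT and 227 and 848 CPM after CD45 RIT, and its part in the values of the 10 genes was not tested.

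**Figure D4:**
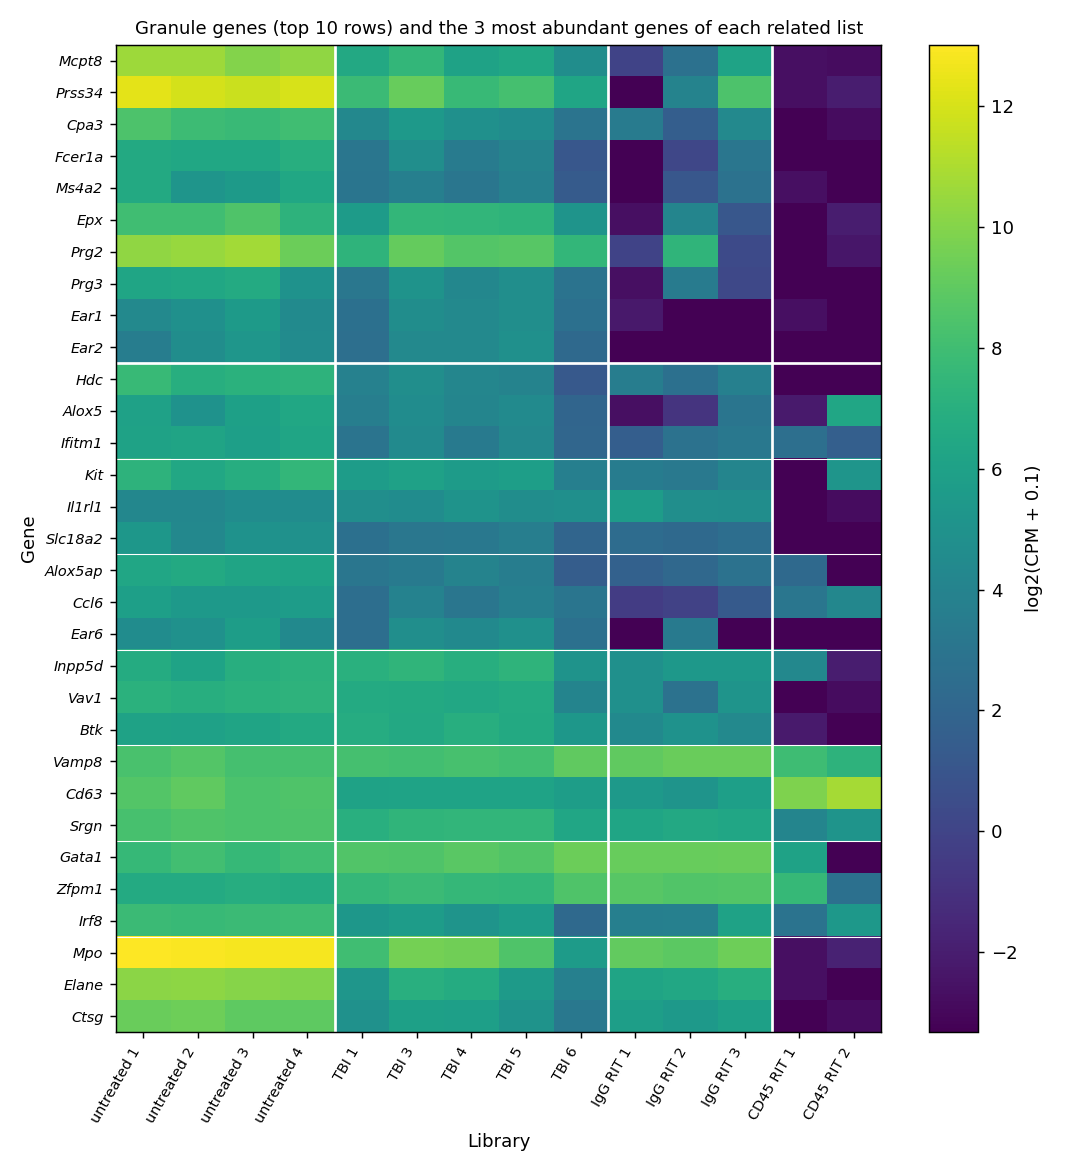
log2(CPM + 0.1) of the 10 genes (top) and of the 3 most abundant tested genes of each related list (below, in blocks of 3), with 1 column per library. Il1rl1, Vamp8, Gata1 and Zfpm1 stay bright through TBI and IgG RIT, and Cd63 is brightest in the CD45 RIT columns. The top 10 rows all darken in IgG RIT, while Epx, Prg3, Ear1 and Ear2 reach their untreated range in some TBI columns.

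The genes whose levels ran most like 4 of these genes were found by Pearson correlation of log2 CPM over the 14 libraries, among 8137 genes. Tes (r = 0.96) and Dock2 (0.95) were among the 3 nearest to Mcpt8, and Dock2 (0.94), Tut1 (0.91) and Tes (0.91) were the nearest to Prss34. Dock2 (0.94), Dbnl (0.92) and Tut1 (0.92) were nearest to Epx, and Fasn (0.92), Dbnl (0.92) and Dock2 (0.92) to Prg2. The same 14 libraries, with their group differences, depth and composition, enter every value, so the correlations describe these libraries. Dock2, an exchange factor of blood cells, recurred in all 4 lists. No read of it was found after CD45 RIT, and untreated libraries held 36.9 to 103 CPM.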

How the data were processed

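RNA of the sorted cells was amplified with the SMART-Seq v4 kit and made into libraries with Nextera XT, per the labels' protocols. The authors deposited whole-number counts per gene, not normalized. STAR 2.7.7a, FastQC 0.11.9 and edgeR 3.36.0 are named in the submitters' processing notes, as is a human build, whereas 54587 of 55335 gene identifiers had the same coordinates in mouse GENCODE M21, so coordinates are on GRCm38. The use of strand and of shared reads is not given in the sources used here. TBI replicate 2 was not analysed here.

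Genes were kept with filterByExpr (minimum count 10), leaving 21509, and all 14 libraries were fitted together with edgeR 4.0.16 in R 4.3.3 (TMM factors, robust quasi-likelihood, 6 contrasts, Benjamini-Hochberg adjustment over all tested genes, called under 0.05). CPM and sums use TMM-scaled totals, and RPKM divides CPM by the gene length in the deposited table. A group at 0 is given a floor of 3 counts, and other low groups an exact Poisson interval. Reads carry no molecular identifiers, so intervals cover counting error alone. The fitting code was run on simulated counts that took the untreated means in all groups, apart from planted changes. Those counts lack the composition differences between these libraries, and no result here rests on them.

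The 10 genes and the lists were chosen with earlier results of these data known. Further genes named are the 3 with the highest mean CPM of each list, the sort markers Cdh5, Pecam1 and Ptprc, and the 3 nearest by correlation to Mcpt8, Prss34, Epx and Prg2. One of these nearest genes is not reported here. Other genes named are examples of list counts. No library pair was a duplicate: the closest replicates (TBI 3 and TBI 5) differed with a chi-square of 15.9 per gene. Alternatives were RLE or no scaling, no filter, DESeq2 1.42.0, a replicate block, a library number term and leaving out each library. The library number term is estimated from TBI 6 against the other TBI libraries alone.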

Additional observations from a re-analysis of the deposited data

Results flagged for a closer look

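Among 66 groups of values examined, 5 had a library farther from the others than Dixon's 95% limit allows, where chance flags about 1 in 20. All 5 concern TBI 6: Kit was low at 13.0 CPM, Vav1 at 16.6 CPM and Cd63 at 55.0 CPM, while Vamp8 was high at 527 CPM and Zfpm1 at 362 CPM. None of the 10 granule and receptor genes was set apart by this limit in the untreated or TBI group.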

How the results depend on the processing

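Over 1160 refitted fold changes of the 10 genes, 1155 kept their direction. These refits include the comparisons with untreated behind the choice of the genes, where a kept direction follows from that choice. Fits that leave out 1 library also share most of their libraries, so the refits are not independent. The 5 reversals all came with a term for a library number of 10 or more in IgG RIT against TBI: Mcpt8 0.029, Prss34 0.61, Cpa3 0.56, Fcer1a 0.58 and Ms4a2 0.28, and the cause was not tested. Without CD45 RIT 1, which held all the Mcpt2 counts of that group, Mcpt2 in CD45 RIT against untreated turned to -1.35, and leaving out each library in turn gave -1.35 to 7.91. With the library number term, Vamp8 (-0.058) and Irf8 (0.40) in IgG RIT and Irf8 (0.092) in CD45 RIT against untreated also turned, none called. That term also gave 1 gene called in TBI against untreated, 0 in IgG RIT against untreated, 8 in CD45 RIT against TBI and 0 in IgG RIT against TBI. DESeq2 called 5 in TBI against untreated. Leaving out 1 library gave 1 to 5 called in TBI against untreated, 5 to 10 in IgG RIT against untreated, 2 to 8 in CD45 RIT against IgG RIT and 1 to 3 in IgG RIT against TBI, and 10 throughout in CD45 RIT against untreated and against TBI.

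Same-numbered libraries did not deviate together (r from -0.0896 to 0.14 over 13 pairs, 1 above 0.1). With the replicate number as a block, 0 of the 10 were called in TBI against untreated (2 had an unadjusted p under 0.05), 6 in IgG RIT against untreated, 7 in CD45 RIT against TBI, 3 in CD45 RIT against IgG RIT and 0 in IgG RIT against TBI (5 with an unadjusted p under 0.05).

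Calls among the listed genes of related cells also moved. TBI against untreated gave 22, but 39 with DESeq2, 3 with the block and 16 to 44 leaving out 1 library. IgG RIT against untreated gave 46, but 24 with the block, 2 with the library number term and 27 to 77 leaving out 1 library. CD45 RIT against untreated gave 54, and 29 with that term. IgG RIT against TBI gave 3, but 16 with DESeq2 and 14 without TBI 6, where all tested genes gave 52, 2085 and 2025. Without scaling, the median of all genes shifted from -0.16, -0.42 and -0.37 to -0.28, -0.94 and -1.08 for TBI, IgG RIT and CD45 RIT against untreated.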
